A study of Mus musculus with 6 samples.

Results

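The genes described here encode the secreted and membrane-bound proteases that cut the extracellular matrix, their protease-like relatives and their inhibitors. They were chosen by name from the deposited expression table. A row was taken when its symbol began with Adamts, or was Mmp or Timp followed by a digit, and when its counts summed to 60 or more over the 6 libraries. Mmp8 and Timp1 were left out by the rule. Of 49 rows with such a name, 38 met the count minimum, against 56826 rows in the whole table, and all 38 passed the low-count filter of the test. They comprise 19 ADAMTS proteases, 5 ADAMTS-like proteins, 11 matrix metalloproteinases (MMPs) and 3 tissue inhibitors of metalloproteinases (TIMPs).

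The libraries were made from total RNA of mouse brain after removal of ribosomal RNA. In the ischemia/reperfusion group a nylon filament blocked the middle cerebral artery for 1 h and was then withdrawn for 6 h of reperfusion, as models of stroke do. Sham animals had the same neck operation under the same chloral hydrate anaesthesia, and no filament was placed. All were male C57BL/6 mice of 8 to 9 weeks, with 3 libraries in each group. The labels name the tissue only as brain, so the hemisphere and region sampled are not given, and they leave unsaid whether each library is its own animal. P-values therefore measure the spread among these 6 libraries, and part of that spread may be technical. Total counts ranged over 45425867 to 48563351 in ischemia/reperfusion and 48130054 to 49686109 in sham. In whole tissue, fewer cells of a type and less RNA per cell cannot be told apart.

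Matrix metalloproteinases and ADAMTS proteases share a zinc-dependent catalytic centre and are made as inactive precursors. TIMPs bind the active centre of MMPs and block it, and Timp3 also blocks some ADAMTS proteases. In brain the matrix is rich in hyaluronan and the lectican proteoglycans (aggrecan, brevican, neurocan and versican), which several ADAMTS proteases cut, while the vessels lie on a basement membrane of collagen IV and laminin that the gelatinases Mmp2 and Mmp9 can degrade. ADAMTS-like proteins have the accessory domains of the ADAMTS family but no protease domain.

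Some libraries stood apart from others of their group. Summed RPKM (counts divided by the row's length in kilobases, per 1000000 counts in the library) of 6 oligodendrocyte markers was 918, 1150 and 2520 in the 3 ischemia/reperfusion libraries, against 1130, 1090 and 1420 in the 3 sham libraries. The sum for 6 choroid plexus markers was 326, 9.54 and 951 in ischemia/reperfusion, and 432 to 599 in sham. Most of it was Ttr, at 313, 5.93 and 927 RPKM in ischemia/reperfusion. In ischemia/reperfusion replicate 2, Folr1, Aqp1 and Clic6 were also low, at 0.216, 0.157 and 0.319 RPKM. Kl and Otx2 were still present there, at 1.70 and 1.22 RPKM, against 2.91 and 0.741 RPKM in replicate 1. All 7 neuron markers were present in all libraries, with a summed RPKM of 1150 to 1340 in ischemia/reperfusion and 1250 to 1270 in sham. Among the matrix genes, 9 of 38 (23.7%) had at least 1.5 times the mean of the group's other libraries in ischemia/reperfusion replicate 3, as did 7.07% of the 16642 gene-symbol rows tested. In sham replicate 2 this held for 4 of the 38 genes (10.5%) and 4.66% of gene-symbol rows.

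The levels spanned a wide range, and the inhibitors and membrane-bound MMPs led the order. Timp2 was highest, with a mean over the 6 libraries of 45.6 RPKM, ahead of Timp3 (26.4), Mmp17 (26.3), Timp4 (25.1), Mmp24 (14.8) and Adamts1 (13.7 RPKM). Timp3 and Mmp17 had overlapping levels in both groups. Timp4 was below Mmp17 in each ischemia/reperfusion library, at 17.5 to 24.3 RPKM against 25.1 to 29.2 RPKM, and overlapped it in sham, at 26.3 to 33 RPKM against 21 to 29.2 RPKM. These 6 genes were the only members at 10 RPKM or more, 16 had 1 to under 10 RPKM, and 16 had less than 1 RPKM. The lowest member was Adamts7, at 0.0704 ± 0.0179 RPKM in ischemia/reperfusion and 0.0346 ± 0.0136 RPKM in sham (SD, n = 3 each).

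**Figure D1:**
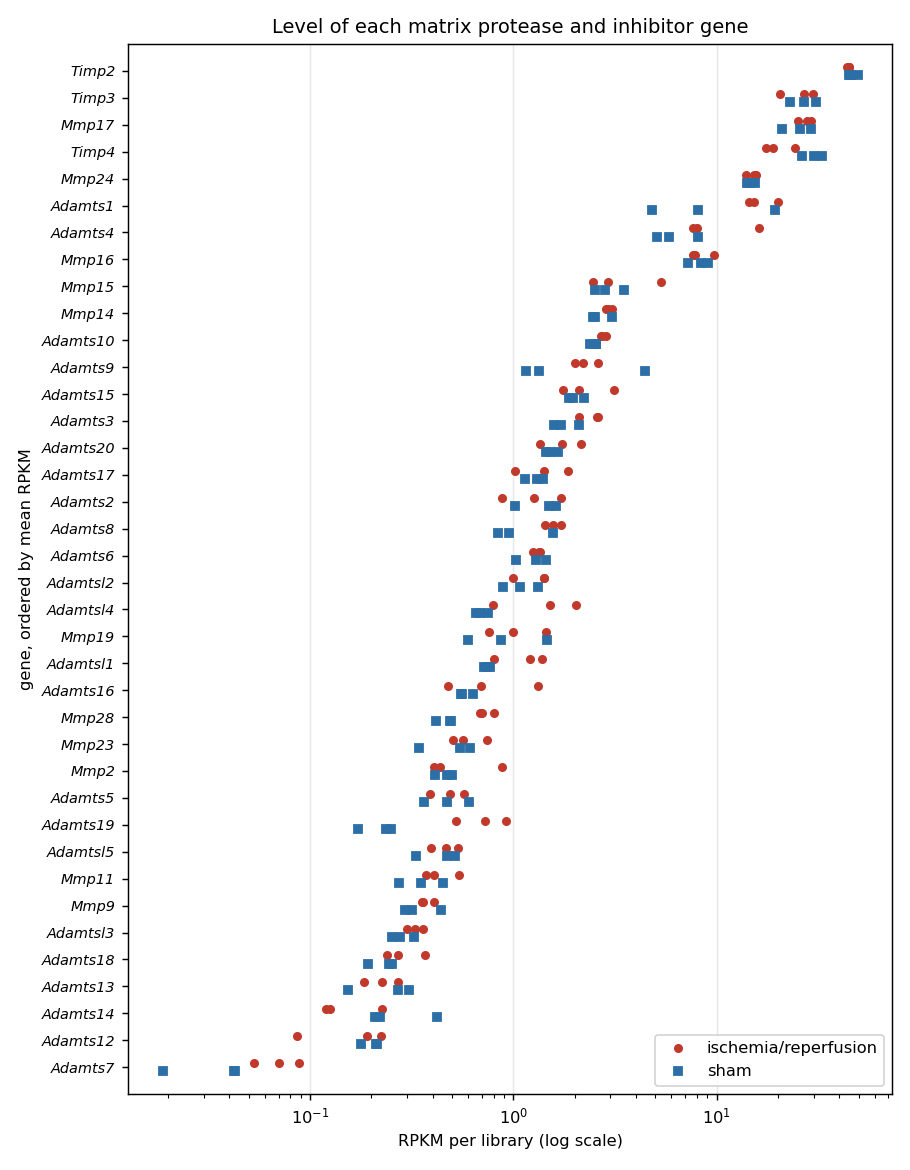
RPKM of each of the 38 genes in every library on a log axis, with ischemia/reperfusion libraries as circles and sham libraries as squares, ordered by mean RPKM. Timp2 is at the top and Adamts7 at the bottom, and the points of the 2 groups are mixed for 31 of the 38 genes.

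No matrix protease or inhibitor gene passed an adjusted p of 0.05 among 40170 rows (edgeR with Benjamini-Hochberg adjustment), where 0.00249% of rows were called. At an unadjusted p under 0.05, 5 of 38 genes were higher (13.2%, against 6.39% of gene-symbol rows), namely Adamts19, Adamtsl4, Adamtsl1, Adamts3 and Mmp28. In the lower direction there were 2 (5.26%, against 8.71% of gene-symbol rows), Timp4 and Adamts14. The alternative tool DESeq2 called Adamts19 and Adamtsl4 higher, 2 of the 37 genes to which it gave an adjusted p (5.41%, against 1.03% of all such rows). It called Timp4 lower (2.70%, against 0.666%). The log2 fold change of ischemia/reperfusion over sham was positive for 27 of the 38 genes, with a median of 0.11, against −0.04 over gene-symbol rows and 0.02 over all rows tested. Without ischemia/reperfusion replicate 3, 19 of the 38 were positive and the median was 0.01, as it was over all rows in that fit. Leaving out each other library gave 25 to 30 positive genes. Ischemia/reperfusion replicate 3 had the highest summed oligodendrocyte, choroid plexus, and pericyte and smooth muscle markers of all libraries.

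**Figure D2:**
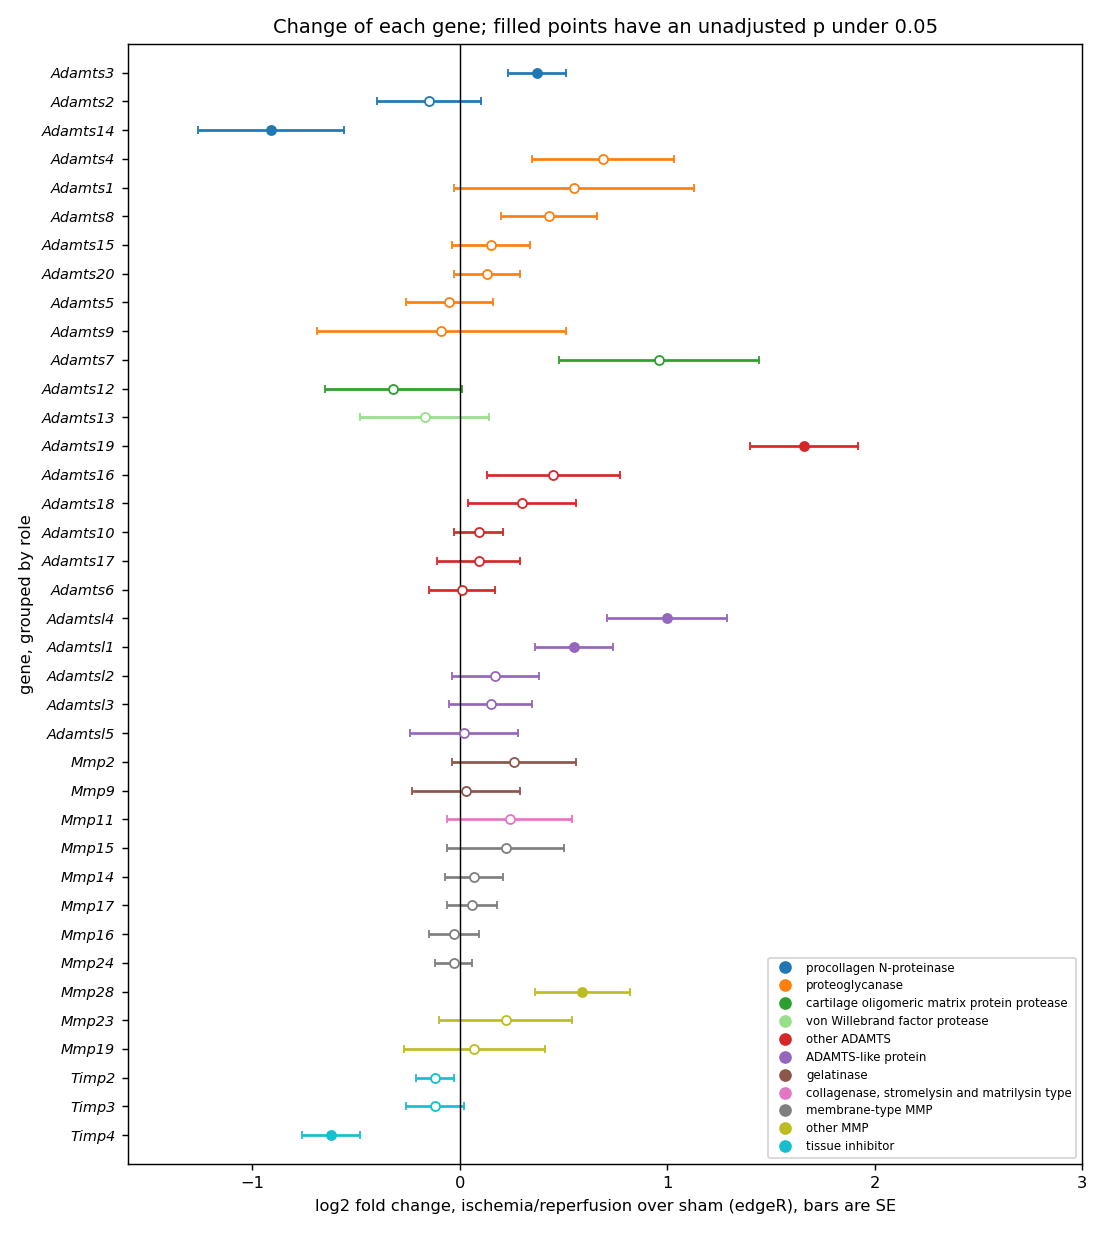
Log2 fold change of ischemia/reperfusion over sham for the 38 genes, grouped by role from top to bottom, with bars of 1 SE from the edgeR fit. Filled points have an unadjusted p under 0.05, the highest being Adamts19 at 1.66 and the lowest Adamts14 at −0.91.

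The 3 procollagen N-proteinases, which trim the amino end of fibrillar procollagens, did not share a direction. Adamts3 had 2.61, 2.10 and 2.57 RPKM in ischemia/reperfusion and 1.71, 1.59 and 2.11 RPKM in sham. The groups overlapped only through ischemia/reperfusion replicate 2 and sham replicate 3. Its log2 fold change was 0.37 ± 0.14 (SE; edgeR adjusted p = 0.245). Adamts14 had 0.226, 0.125 and 0.119 RPKM in ischemia/reperfusion, against 0.423, 0.208 and 0.221 RPKM in sham. Replicate 1 was the highest library of each group. The log2 fold change of −0.91 ± 0.35 (edgeR adjusted p = 0.263) moved to −1.27 when ischemia/reperfusion replicate 1 was left out and to −0.51 when sham replicate 1 was. Adamts2, which acts on the same substrates, averaged 1.29 ± 0.423 RPKM in ischemia/reperfusion and 1.38 ± 0.319 RPKM in sham (SD, n = 3 each).

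Among the 7 proteoglycanases, which can cut lecticans, Adamts1 and Adamts4 had the highest levels. Adamts1 had 15.3, 14.4 and 20.1 RPKM in ischemia/reperfusion, against 8.09, 19.5 and 4.83 RPKM in sham. Sham replicate 2 was as high as the ischemia/reperfusion libraries, and the other sham libraries were below all of them. With all libraries the log2 fold change was 0.55 ± 0.58 (edgeR adjusted p = 0.697), and leaving out sham replicate 2 gave 1.31 ± 0.24 (edgeR adjusted p = 0.194). Adamts9, a versican-cutting protease related to the worm protein GON-1, also had its highest sham value in replicate 2. It had 2.62, 2.01 and 2.19 RPKM in ischemia/reperfusion and 1.33, 4.43 and 1.16 RPKM in sham, so that sham replicate 2 was 3.55 times the mean of the other sham libraries. At −0.09 ± 0.60 its log2 fold change was near 0, but it became 0.82 ± 0.16 when sham replicate 2 was left out (edgeR adjusted p = 0.164). The 3 cDNA clone rows inside the Adamts9 span, whose reads the gene row may share, had 100, 98 and 85 counts in sham replicate 2 and 8 to 32 counts in the other sham libraries.

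Adamts8 and the metalloproteinase Mmp19 were the other genes at 1.5 times or more in sham replicate 2. Adamts8 had 1.43, 1.56 and 1.72 RPKM in ischemia/reperfusion and 0.837, 1.56 and 0.947 RPKM in sham, and its log2 fold change was 0.43 ± 0.23 (edgeR adjusted p = 0.378), or 0.76 ± 0.19 without sham replicate 2 (edgeR adjusted p = 0.251). Mmp19 had 1.45, 0.760 and 0.995 RPKM in ischemia/reperfusion and 0.600, 1.47 and 0.865 RPKM in sham, with no separation of the groups. Its row overlaps the opposite-strand gene Tmem198b, which had 2.86, 1.94 and 2.51 RPKM in ischemia/reperfusion and 1.78, 2.36 and 2.3 RPKM in sham. Whether reads were counted by strand is not stated, so the reads of Mmp19 and Tmem198b cannot be separated where they overlap. Summed RPKM of 6 endothelial markers, a cell type in which Adamts1 and Adamts9 are known to be made, was 63.2, 67.5 and 71.6 in ischemia/reperfusion and 58.9, 73.2 and 58.7 in sham. Most of this sum was Cldn5, at 37.6, 52.2 and 35.2 RPKM in sham. Within sham, Pecam1, Cldn5, Flt1 and Cdh5 were highest in replicate 2. Tek (1.44, 0.665 and 1.97 RPKM) and Slco1a4 (7.23, 2.02 and 8.22 RPKM) were lowest in that library. The part of endothelial cells in the Adamts1, Adamts8, Adamts9 and Mmp19 values was not tested. Adamts5, the neighbour of Adamts1 on chromosome 16 at a distance of 55.0 kb, did not have this shape, with 0.365, 0.474 and 0.606 RPKM in sham.

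Adamts4, an aggrecanase that also cuts brevican, had 7.63, 8.01 and 16.1 RPKM in ischemia/reperfusion, against 5.07, 5.82 and 8.06 RPKM in sham. Ischemia/reperfusion replicate 3 was at 2.06 times the mean of the group's other libraries. A log2 fold change of 0.69 ± 0.34 (edgeR adjusted p = 0.391) became 0.26 ± 0.18 without that library. Oligodendrocyte and choroid plexus markers, given above, had their highest sums in the same library, and their part in the Adamts4 values was not tested. Adamts15 averaged 2.33 ± 0.711 RPKM in ischemia/reperfusion and 2.01 ± 0.179 RPKM in sham, and Adamts20 averaged 1.75 ± 0.406 RPKM in ischemia/reperfusion and 1.53 ± 0.102 RPKM in sham (SD, n = 3 each).

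**Figure D3:**
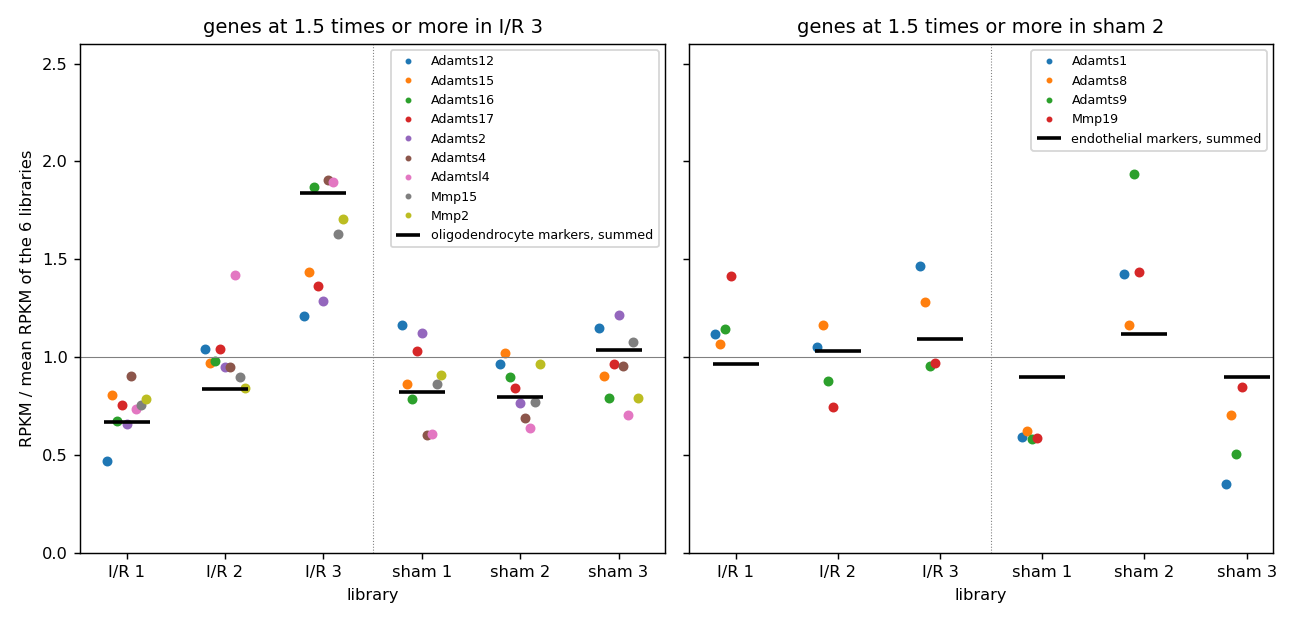
RPKM in each library divided by the gene's mean over the 6 libraries, for the 9 genes at 1.5 times or more in ischemia/reperfusion (I/R) replicate 3 on the left and the 4 such genes in sham replicate 2 on the right. Black bars are the summed RPKM of oligodendrocyte markers (left) and endothelial markers (right) on the same scale, and the oligodendrocyte bar is highest in I/R replicate 3, at a sum of 2520. The sum of choroid plexus markers, not drawn, was also highest in that library.

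Besides Adamts4, the genes at 1.5 times or more in ischemia/reperfusion replicate 3 were Adamts2, Adamts12, Adamts15, Adamts16, Adamts17, Adamtsl4, Mmp2 and Mmp15. Adamts16 had 0.476, 0.693 and 1.32 RPKM in ischemia/reperfusion and 0.554, 0.635 and 0.560 RPKM in sham. The membrane-bound Mmp15 had 2.46, 2.93 and 5.32 RPKM in ischemia/reperfusion, against 2.82, 2.52 and 3.52 RPKM in sham. For Adamts16 and Mmp15 the log2 fold changes of 0.45 and 0.22 became −0.05 and −0.18 without ischemia/reperfusion replicate 3, so their directions rest on that library.

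Of the proteases of cartilage oligomeric matrix protein, Adamts7 had 23, 13 and 17 counts in ischemia/reperfusion and 5, 11 and 11 counts in sham. The groups did not overlap, but the row was the member nearest the count minimum, with 80 counts in all, and its log2 fold change of 0.96 ± 0.48 had an edgeR adjusted p of 0.355. Adamts12 averaged 0.167 ± 0.0716 RPKM in ischemia/reperfusion and 0.200 ± 0.0202 RPKM in sham (SD, n = 3 each). Adamts13, the plasma protease that shortens von Willebrand factor and so limits platelet adhesion, had 0.184, 0.270 and 0.226 RPKM in ischemia/reperfusion, against 0.272, 0.154 and 0.308 RPKM in sham. Its groups overlapped, with a log2 fold change of −0.17 ± 0.31.

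Adamts19 had the largest log2 fold change of the 38 genes. It is an ADAMTS protease of the same subfamily branch as Adamts17, with no substrate assigned here. Its RPKM was 0.728, 0.520 and 0.915 in ischemia/reperfusion replicates 1, 2 and 3, from 165, 112 and 194 counts, against 0.250, 0.236 and 0.171 in sham, from 58, 53 and 39 counts. The lowest ischemia/reperfusion library was above the highest sham library. The log2 fold change was 1.66 ± 0.26 (SE), or 3.15-fold, with an edgeR adjusted p of 0.123 and a DESeq2 adjusted p of 2.47e-05. Leaving out a library moved the log2 fold change between 1.45 and 1.83. The edgeR adjusted p was under 0.05 without ischemia/reperfusion replicate 1 (0.0177) or replicate 2 (0.0335), and with no low-count filter (0.0195), and lay from 0.125 to 0.491 without each of the other 4 libraries.

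The row of Adamts19 lies on chromosome 18 from 58836764 to 59053678 on the plus strand (mm10). A pair of clone rows lies inside that span on the same strand, and the sources used here do not say whether they are exonic or intronic. The clone fantom3_2610317O13 had 18, 11 and 14 counts in ischemia/reperfusion and 5, 1 and 1 in sham (log2 fold change 2.56 ± 0.66, edgeR adjusted p = 0.162). The clone fantom3_D230034E10 had 9, 15 and 15 counts in ischemia/reperfusion and 4, 3 and 0 in sham, and was under the low-count filter. For both clones each ischemia/reperfusion library was above each sham library, as for the gene row, whose reads they may share. Of 36 clone rows overlapping 18 of the 38 genes, 25 were tested and 0 called (edgeR), with an unadjusted p under 0.05 in 2 higher and 1 lower, against 10.4% and 5.63% of the 23528 clone rows tested. Summed RPKM of 6 hypothalamic and thalamic markers was 191, 35.5 and 167 in ischemia/reperfusion and 48.1, 30.5 and 129 in sham. These markers did not move together. In ischemia/reperfusion replicate 1, Oxt, Avp and Pmch were highest of the 6 libraries, and Tcf7l2 (0.683 RPKM) and Prkcd (18.3 RPKM) were lowest. Hcrt was highest in ischemia/reperfusion replicate 3. The part of the sampled region in the Adamts19 values was not tested. The other 5 ADAMTS genes outside the substrate classes had smaller log2 fold changes, from 0.01 for Adamts6 to 0.45 for Adamts16. Adamts18 averaged 0.294 ± 0.0670 RPKM in ischemia/reperfusion and 0.230 ± 0.0327 RPKM in sham (SD, n = 3 each), with a log2 fold change of 0.30 ± 0.26, and Adamts6 had at most 1.35 RPKM in ischemia/reperfusion and 1.45 RPKM in sham. Adamts10, which takes part in fibrillin microfibril assembly, averaged 2.77 ± 0.0869 RPKM in ischemia/reperfusion and 2.49 ± 0.0962 RPKM in sham (SD, n = 3 each), without overlap of the groups, at a log2 fold change of 0.09 ± 0.12.

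The 5 ADAMTS-like genes were all positive, with a median log2 fold change of 0.17. Adamtsl4, which binds fibrillin microfibrils and is linked to displacement of the eye lens, had 0.790, 1.52 and 2.03 RPKM in ischemia/reperfusion, against 0.652, 0.684 and 0.754 RPKM in sham. All ischemia/reperfusion libraries were above all sham libraries, but replicate 1 only just so. Its log2 fold change was 1.00 ± 0.29 with an edgeR adjusted p of 0.196 and a DESeq2 adjusted p of 0.0372. It was 1.29 without ischemia/reperfusion replicate 1 (edgeR adjusted p = 0.00983) and 0.68 without replicate 3 (0.423). Adamtsl1 had 0.799, 1.39 and 1.21 RPKM in ischemia/reperfusion and 0.721, 0.745 and 0.770 RPKM in sham. Here too ischemia/reperfusion replicate 1 lay next to the sham libraries. Its log2 fold change was 0.55 ± 0.19 (edgeR adjusted p = 0.231), and 0.74 without ischemia/reperfusion replicate 1 (edgeR adjusted p = 0.0247). Without that library edgeR called 3 of the 38 genes higher (7.89%, against 1.59% of rows), which were Adamts19, Adamtsl4 and Adamtsl1, and 1 lower, Timp4 (2.63%, against 0.995%). Adamtsl2, the regulator of TGF-beta availability in microfibrils, averaged 1.28 ± 0.238 RPKM in ischemia/reperfusion and 1.10 ± 0.213 RPKM in sham (SD, n = 3 each). Adamtsl3 and Adamtsl5 had overlapping groups under 1 RPKM, with log2 fold changes of 0.15 ± 0.20 and 0.02 ± 0.26.

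**Figure D4:**
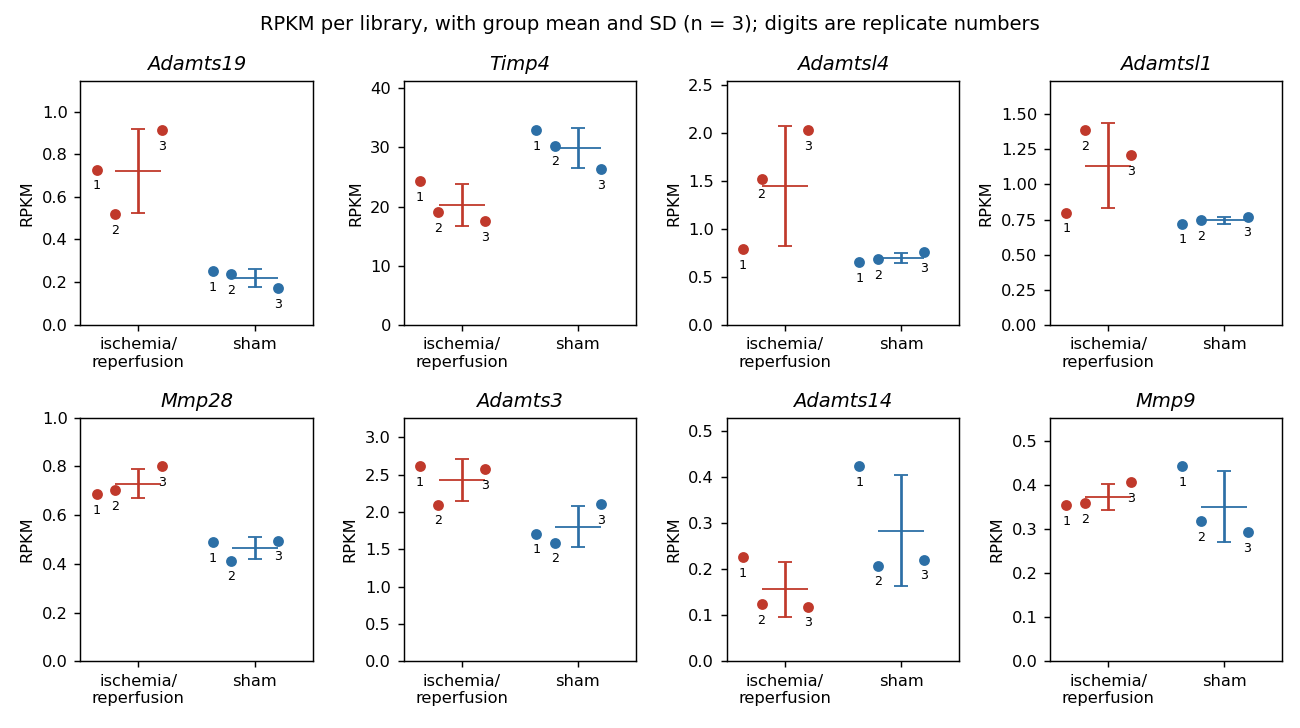
RPKM per library of the 7 genes with an unadjusted p under 0.05 and of Mmp9, with ischemia/reperfusion left of sham, the mean as a line and the SD as bars (n = 3 each). Adamts19, Adamtsl4, Adamtsl1 and Mmp28 have all ischemia/reperfusion libraries above all sham libraries, Timp4 has them all below, and Mmp9 has mixed points between 0.293 and 0.442 RPKM.

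The gelatinases, the MMPs studied most often in stroke because they degrade basement membrane, were at low levels. Mmp9 had 0.354, 0.359 and 0.407 RPKM in ischemia/reperfusion, from 54, 52 and 58 counts, against 0.442, 0.318 and 0.293 RPKM in sham, from 69, 48 and 45 counts. Every ischemia/reperfusion value lay inside the sham range. For Mmp9 the log2 fold change was 0.03 ± 0.26 (SE), and between −0.10 and 0.23 when each library was left out in turn. Neutrophils store Mmp9, and 7 neutrophil and monocyte markers summed to 15, 25.9 and 25.2 RPKM in ischemia/reperfusion and 11.2, 11.7 and 6.59 RPKM in sham. Of these markers S100a8, S100a9 and Csf3r had each ischemia/reperfusion library above each sham library, with log2 fold changes of 1.11, 1.26 and 0.67. Their edgeR adjusted p was 0.16, 0.162 and 0.223, and DESeq2 called S100a8 (adjusted p = 0.0219) and S100a9 (adjusted p = 0.00778) higher. Retnlg and Ccr2 had overlapping groups, with log2 fold changes of 0.74 and 0.03, and Ly6c2 was under the low-count filter. The granule enzyme gene Mpo was also under that filter, at 0.0647 RPKM or less in ischemia/reperfusion and 0.104 RPKM or less in sham. The part of these cells in the Mmp9 values was not tested. Mmp2 had 0.406, 0.435 and 0.883 RPKM in ischemia/reperfusion and 0.470, 0.499 and 0.410 RPKM in sham. Its log2 fold change of 0.26 ± 0.30 was −0.18 without ischemia/reperfusion replicate 3, the 1 library above the rest.

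The membrane-type MMPs, which sit on the cell surface through a transmembrane segment or a lipid anchor, included the highest proteases of the set and had log2 fold changes between −0.03 and 0.22. Mmp17, anchored by glycosylphosphatidylinositol, had 25.1, 27.9 and 29.2 RPKM in ischemia/reperfusion and 25.7, 21.0 and 29.2 RPKM in sham. Its groups overlapped, with a log2 fold change of 0.06 ± 0.12. Mmp24, which is made mainly in neurons, had 15.6, 14 and 15.3 RPKM in ischemia/reperfusion, against 14.6, 14.1 and 15.5 RPKM in sham (log2 fold change −0.03 ± 0.09). Its row overlaps the opposite-strand gene BC029722, and whether reads were counted by strand is not stated. Mmp14, an activator of pro-Mmp2, averaged 2.94 ± 0.107 RPKM in ischemia/reperfusion and 2.69 ± 0.336 RPKM in sham, and Mmp16 averaged 8.39 ± 1.12 RPKM in ischemia/reperfusion and 8.23 ± 0.895 RPKM in sham (SD, n = 3 each).

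Mmp28, also called epilysin, was the MMP with the largest log2 fold change. Its RPKM was 0.686, 0.704 and 0.800 in ischemia/reperfusion, from 77, 75 and 84 counts, against 0.488, 0.414 and 0.496 in sham, from 56, 46 and 56 counts. The groups did not overlap, and the spread within each was small. Its log2 fold change of 0.59 ± 0.23 had an edgeR adjusted p of 0.256 and a DESeq2 adjusted p of 0.311, and ranged from 0.52 to 0.63 when each library was left out. Over the 38 genes the groups did not overlap in 6 higher genes (15.8%, against 10.3% of gene-symbol rows), which were Adamts19, Adamtsl4, Adamtsl1, Mmp28, Adamts7 and Adamts10. They did not overlap in 1 lower gene, Timp4 (2.63%, against 8.79%). Mmp11, stromelysin-3, averaged 0.439 ± 0.0892 RPKM in ischemia/reperfusion and 0.357 ± 0.0875 RPKM in sham, and Mmp23 averaged 0.604 ± 0.123 RPKM in ischemia/reperfusion and 0.499 ± 0.139 RPKM in sham (SD, n = 3 each).

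The TIMPs held the largest summed level, and Timp4 was the only 1 of them whose groups did not overlap. Timp4 lies on chromosome 6 from 115245616 to 115251849 on the minus strand (mm10). It had 24.3, 19.0 and 17.5 RPKM in ischemia/reperfusion, from 1669, 1239 and 1124 counts, against 33.0, 30.3 and 26.3 RPKM in sham, from 2325, 2067 and 1822 counts. Each ischemia/reperfusion library was below each sham library. A log2 fold change of −0.62 ± 0.14 (SE) had an edgeR adjusted p of 0.150 and a DESeq2 adjusted p of 0.0113, and ranged from −0.77 to −0.52 when each library was left out. Only without ischemia/reperfusion replicate 1 was the edgeR adjusted p under 0.05 (0.0150).

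Timp4 lies inside the span of Syn2, a synaptic vesicle gene on the opposite strand, and where the pair overlaps their reads cannot be separated here. Syn2 had 51.4, 57.5 and 53.0 RPKM in ischemia/reperfusion and 62.3, 51.9 and 57.5 RPKM in sham, with overlapping groups and a log2 fold change of −0.14 ± 0.10. A clone row that overlaps the 3′ side of Timp4 on its own strand, fantom3_D830033G01, had a log2 fold change of −0.35 ± 0.11 (edgeR adjusted p = 0.201). Timp4 is made by astrocytes among other cells. The summed RPKM of 7 astrocyte markers was 810, 734 and 715 in ischemia/reperfusion and 858, 892 and 832 in sham, without overlap. Of these markers 5 had a negative log2 fold change, and the median was −0.27. Gjb6 and Aldoc had each ischemia/reperfusion library below each sham library, with log2 fold changes of −0.64 and −0.38. Their edgeR adjusted p was 0.139 and 0.178, and DESeq2 called Gjb6 lower (adjusted p = 0.00333). The other markers had overlapping groups, and Gfap (0.14) and Slc1a2 (0.01) were positive. The part of astrocytes in the Timp4 values was not tested.

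Timp2, which both inhibits MMPs and helps Mmp14 to activate pro-Mmp2, had 45, 44 and 44.8 RPKM in ischemia/reperfusion and 45.7, 44.6 and 49.5 RPKM in sham. The groups overlapped, and the log2 fold change was −0.12 ± 0.09 (edgeR adjusted p = 0.527). Timp3, the matrix-bound inhibitor that also blocks Adamts4 and Adamts5, had 26.9, 20.6 and 29.8 RPKM in ischemia/reperfusion, against 22.9, 31.0 and 27.0 RPKM in sham. Its groups overlapped, with a log2 fold change of −0.12 ± 0.14 (edgeR adjusted p = 0.708). Timp3 lies inside the opposite-strand gene Syn3, as Timp4 does in Syn2, and Syn3 had 1.97 to 2.95 RPKM over the 6 libraries.

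The sequences before the start sites of the 3 TIMP genes and of Adamts1 are shown because the groups of Timp4 did not overlap while those of Timp2 and Timp3 did, and because Adamts1 was the highest ADAMTS gene. The RefSeq start of Timp4 lies upstream of the end of its deposited row. Each run is the 250 bases before the RefSeq start (GRCm38.p6, the build of mm10), 5′ to 3′ on the strand of the gene. Capitals mark the GC box GGGCGG, searched on both strands, the motif of Sp-family factors.
Timp4 (chr6:115252206-115252455, minus strand): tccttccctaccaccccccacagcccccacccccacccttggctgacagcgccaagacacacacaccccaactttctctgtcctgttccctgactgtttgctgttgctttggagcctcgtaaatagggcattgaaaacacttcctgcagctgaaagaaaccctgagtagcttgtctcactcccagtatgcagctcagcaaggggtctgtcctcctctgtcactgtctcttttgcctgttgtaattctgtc
Timp2 (chr11:118355412-118355661, minus strand): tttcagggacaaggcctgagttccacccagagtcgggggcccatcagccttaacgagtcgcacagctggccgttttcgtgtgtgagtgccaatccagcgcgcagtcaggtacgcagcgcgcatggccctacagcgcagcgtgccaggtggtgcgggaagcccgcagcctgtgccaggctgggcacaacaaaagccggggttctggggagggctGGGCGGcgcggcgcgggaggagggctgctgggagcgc
Timp3 (chr10:86300162-86300411, plus strand): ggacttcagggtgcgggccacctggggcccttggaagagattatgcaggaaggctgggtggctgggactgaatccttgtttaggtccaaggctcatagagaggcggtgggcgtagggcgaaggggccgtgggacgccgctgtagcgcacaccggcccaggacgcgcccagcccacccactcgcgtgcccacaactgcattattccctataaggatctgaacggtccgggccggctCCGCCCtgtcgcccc
Adamts1 (chr16:85803114-85803363, minus strand): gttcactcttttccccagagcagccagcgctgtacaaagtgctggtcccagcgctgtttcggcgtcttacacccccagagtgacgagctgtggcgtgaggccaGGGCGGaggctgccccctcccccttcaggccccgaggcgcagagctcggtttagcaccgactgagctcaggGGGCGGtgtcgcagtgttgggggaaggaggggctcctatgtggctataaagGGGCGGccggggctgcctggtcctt
No GC box letters were present in the window of Timp4, which was 53.6% G and C. The windows of Timp2 and Timp3 held 1 each and were 68.0% and 65.6% G and C, and the window of Adamts1 held 3. Windows of Adamts12, Adamts13, Adamts17 and Mmp23, whose groups overlapped, also had no GC box letters. Those of Adamtsl4 and Mmp28, whose groups did not overlap, held 2 each. The part of the GC box in the levels was not tested. RefSeq windows were matched for 23 of the 38 genes by gene ID. Over their 24 windows 75.0% held a GC box, as did 32.7% of the 32851 windows of all genes. The median G and C content was 64.8% over these 24 windows and 52.4% over all windows. The windows of all genes were not limited to genes with counts in these libraries, while the 38 genes had to meet a count minimum. The AP-1 motif TGANTCA, searched on both strands and unable to lie inside a GC box, was in 0% of these 24 windows and in 6.75% of all windows. So few windows cannot tell 0% from 6.75%. Adamts19, Adamts4, Mmp9 and Mmp17 were among the genes without a matched window.

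Over the whole set, the summed level overlapped between the 2 groups, while the share held by Timp2, Timp3 and Timp4 did not. Timp1 was left out by the rule and is in none of these sums. All 38 genes together summed to 199, 191 and 222 RPKM in ischemia/reperfusion and 191, 206 and 198 RPKM in sham. The 3 TIMPs summed to 96.2, 83.6 and 92.1 RPKM in ischemia/reperfusion, against 102, 106 and 103 RPKM in sham. Among them Timp4 averaged 20.2 RPKM in ischemia/reperfusion and 29.9 RPKM in sham, and the groups of Timp2 and of Timp3 overlapped. The share of the summed RPKM in TIMPs was 48.4%, 43.8% and 41.6% in ischemia/reperfusion and 53.3%, 51.5% and 51.9% in sham, with no overlap. The 19 ADAMTS proteases summed to 41.3, 41.1 and 59.4 RPKM in ischemia/reperfusion, against 29.2, 45.1 and 29.5 RPKM in sham, where sham replicate 2 was high through Adamts1 and Adamts9. The 11 MMPs summed to 57.8, 60.8 and 64.5 RPKM in ischemia/reperfusion and 56.9, 51.6 and 62.4 RPKM in sham, with overlap. These sums are descriptions of levels per length and were not tested.

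**Figure D5:**
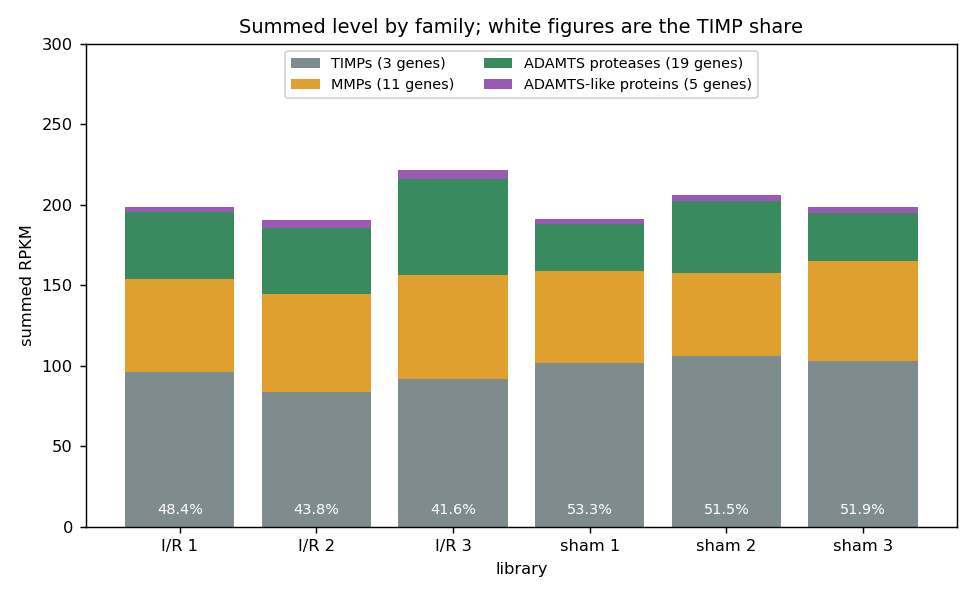
Summed RPKM of the 38 genes in each library, stacked by family, with ischemia/reperfusion (I/R) libraries left of sham libraries. The white figures give the TIMP share of each bar (Timp2, Timp3 and Timp4, without Timp1), from 41.6% to 48.4% in I/R and from 51.5% to 53.3% in sham.

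Below the count minimum lay 11 rows of the same name stems, all of them MMPs. The nearest were Mmp21, Mmp25 and Mmp12, with 46, 42 and 39 counts over the 6 libraries, and the nearest above it were Adamts7, Mmp23 and Mmp11, with 80, 226 and 257. Besides Mmp21 and Mmp25 they all lie in the MMP gene cluster of chromosome 9, where every listed MMP gene but the excluded Mmp8 was under the minimum. Mmp12, the macrophage elastase, had 23, 0 and 10 counts in ischemia/reperfusion and 0, 5 and 1 in sham. Mmp3, stromelysin-1, had 10, 0 and 0 counts in ischemia/reperfusion and 0, 5 and 5 in sham, and Mmp13, a collagenase, had 2, 1 and 10 counts in ischemia/reperfusion and 1, 1 and 0 in sham. All but Mmp25 were also under the low-count filter and were not tested, and Mmp7 had 0 counts in every library.

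Of 58 other genes of the matrix and of protease control, all were tested by edgeR and 0 were called, against 0.00249% of rows. DESeq2 also called 0, against 1.03% of rows higher and 0.666% lower, and gave Has2 no adjusted p. At an unadjusted p under 0.05 (edgeR) 6 of the 58 were higher, against 6.39% of gene-symbol rows, and 2 were lower, against 8.71%. The median log2 fold change was 0.11, with 40 of the 58 above 0, against a median of −0.04 and 7360 of 16642 above 0 over gene-symbol rows. Sparcl1, a matrix protein of astrocytes, averaged 500 ± 21.3 RPKM in ischemia/reperfusion and 607 ± 63.9 RPKM in sham, without overlap (edgeR adjusted p = 0.201). Fbn2, a microfibril protein, averaged 0.411 ± 0.0879 RPKM in ischemia/reperfusion and 0.259 ± 0.0468 RPKM in sham. Bmp1, the procollagen C-proteinase, averaged 5.80 ± 0.739 RPKM in ischemia/reperfusion and 4.38 ± 0.532 RPKM in sham, and Pcsk5, a proprotein convertase, averaged 1.72 ± 0.174 RPKM in ischemia/reperfusion and 1.32 ± 0.0844 RPKM in sham. Hspg2, the basement membrane proteoglycan perlecan, averaged 0.638 ± 0.113 RPKM in ischemia/reperfusion and 0.461 ± 0.0413 RPKM in sham, and the lectican Acan averaged 1.27 ± 0.337 RPKM in ischemia/reperfusion and 0.882 ± 0.128 RPKM in sham (SD, n = 3 each). None of these 5 had an edgeR adjusted p under 0.222. The other lecticans Bcan, Ncan and Vcan, substrates of Adamts4, had overlapping groups and log2 fold changes of 0.13 ± 0.11, 0.21 ± 0.14 and −0.07 ± 0.19.

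By the authors' deposited table, 11 of the 38 genes had a q-value under 0.05 in the higher direction (28.9%, against 14.7% of its rows) and 3 in the lower direction (7.89%, against 9.77%). The authors' deposited table gave Adamts1 a log2 fold change of 0.62 with a q-value of 1.24e-14, although its libraries overlap, and Adamts4 0.75 with a q-value of 2.1e-14. For Timp4 the authors' deposited table gave −0.56 with a q-value of 1.11e-26, and for Adamts19 1.72 with a q-value of 7.85e-14. The sources used here do not name the test behind those values.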

How the data were processed

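Per the labels' protocols, ribosomal RNA was removed from total RNA before NEBNext Ultra library preparation and paired-end sequencing. The genome build was mm10, per the submitters' processing notes. The sources used here name no aligner, counter, annotation release or strand setting. Counts were deposited as whole numbers. Deposited RPKM equalled count divided by row length and by the library's total for 100% of values, within a relative tolerance of 0.001, so its scale is per kilobase and per 1000000 counts. Row lengths were also deposited. A comparison table deposited by the authors adds log2 fold changes, p-values and q-values.

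The main test was edgeR's robust quasi-likelihood test (version 4.0.16, R 4.3.3) on the counts, two-sided, after TMM scaling and the default filterByExpr filter. Its p-values were adjusted by Benjamini-Hochberg over 40170 rows (16642 with a gene symbol, the others mostly cDNA clones) and called at 0.05. The SE is the log2 fold change divided by the square root of F. RPKM means and overlaps use the deposited values, without TMM. Other settings used DESeq2 1.42.0, limma-voom 3.58.1, other factors and filters, a replicate block and leaving out each library. The fits were tested on simulated data. Replicates differed by more than sampling noise.

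The genes, lists and tests were chosen with earlier results of these data known. Genes given in full were Adamts19, members called by edgeR or DESeq2, up to 12 with an unadjusted p under 0.05, the 6 highest by RPKM, the highest in each role class, and of other matrix genes the 6 smallest p-values. Other genes given with values, among them Mmp9, Adamts4, Adamts8, Adamts9, Adamts16, Mmp15, Adamts7, Bcan, Ncan and Vcan, and the GC box were chosen after values were seen. No protein sequences were analysed here. Precision is limited by 3 libraries per group.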

Additional observations from a re-analysis of the deposited data

How the results depend on the processing

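With edgeR the 38 genes gave 0 calls under RLE and upper-quartile factors, gene-symbol rows alone, non-robust estimation and the replicate block. A mean of at least 1 CPM, a filter that not all of the 38 passed, also gave 0 calls, as did limma-voom. The genes gave 3 calls with DESeq2, 1 with no low-count filter, and 0 to 4 when each library was left out. Over all rows there was 1 call, against 576 with DESeq2, 77 with no low-count filter, 4 with limma-voom, 4 with non-robust estimation, 2 with upper-quartile factors, 0 with a mean of at least 1 CPM, with gene-symbol rows alone or with the replicate block, and 0 to 1057 when each library was left out. The count of members at an unadjusted p under 0.05 was 7, and 4 to 8 with a library left out (4 without ischemia/reperfusion replicate 3). The share of all rows at that p was counted in the main fit only. Pathway genes gave 0 to 0 calls with a library left out. Of the named genes, Mmp24 changed sign with upper-quartile factors (0.01), gene-symbol rows alone (0.01) and a mean of at least 1 CPM (0.00), and with a library left out Mmp24 ranged from −0.06 to 0.00, Timp3 from −0.24 to 0.00, Mmp17 from −0.05 to 0.16, Mmp19 from −0.22 to 0.49, Mmp2 from −0.18 to 0.45 and Adamts13 from −0.41 to 0.02. Of the values of named genes under other settings, 264 kept direction and side of the threshold, 9 passed it and 11 changed sign. The causes were not tested.

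Same-numbered libraries of the 2 groups had correlations of deviations of −0.0678, 0.0337 and 0.110, so the numbers were not taken as pairs. With the replicate block edgeR called 0 rows and 0 members, and 9 members had an unadjusted p under 0.05. The share of all rows at that p was not counted in this fit, so the 9 cannot be set against it.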
